A study of Mus musculus with 24 samples.

Results

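The perineuronal net and hyaluronan matrix genes described here are 10 of the 18647 genes in the count table, found by their Ensembl identifiers and mouse gene symbols. They are the lecticans Acan, Bcan, Ncan and Vcan, the link proteins Hapln1 and Hapln4, the tenascins Tnr and Tnc, the hyaluronan synthase Has2, and Cd44, a cell surface receptor for hyaluronan. All 10 passed the filter on low counts, which left 18153 genes for testing.

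Perineuronal nets are dense coats of extracellular matrix around the soma and proximal dendrites of certain neurons, in the hippocampus chiefly parvalbumin-positive (PV) interneurons and pyramidal cells of CA2. Their backbone is hyaluronan, a long unsulfated sugar chain made at the cell surface. Lecticans, which are chondroitin sulfate proteoglycans, bind hyaluronan with one end and tenascins with the other, and link proteins lock the lectican to the chain. The same components also fill the looser matrix between cells, and much of the lectican and tenascin mRNA of the brain comes from astrocytes and oligodendrocyte precursors.

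The mRNA came from hippocampal CA1 of C57Bl/6N mice, at least 60 days old, dissected by hand from slices of 400 µm. In the SE groups, status epilepticus (SE, a continuous seizure) was induced with 335 mg/kg pilocarpine hydrochloride, and CA1 was collected 6, 12, 24, 36 and 72 h later. The control (Ctr) groups at 12, 36 and 72 h received saline in place of pilocarpine. SE and Ctr mice alike had 1 mg/kg scopolamine methyl nitrate 20 min earlier, and the protocol gave diazepam (4 mg/kg) 40 min after the onset of SE, with controls treated in the same way. Only pilocarpine-treated mice that developed SE entered the study, so the SE groups are a selected set of the injected animals. Each of the 8 groups had 3 libraries. The number in each sample's label falls into 1 of 3 ranges (92 to 104, 109 to 122 and 162 to 169), and the labels do not say what these mark. All 3 Ctr 72 h libraries lie in the last range and no SE 72 h library does, and all 3 SE 24 h libraries lie in the first, which holds no control, so range and SE cannot be told apart within either comparison. The fit was repeated with the range as a factor, which is estimated from the other groups there, and a call is defined with the comparisons below. For 12 h this fit called 8 members, beside 4060 of all 18153 genes tested. The 36 h comparison gave 9 members beside 3789 genes, and the 72 h comparison gave 6 beside 2458. For 6 h the fit called 5 members beside 3098 genes, and for 24 h it called 8 beside 3139. The labels do not state that each library came from its own animal. The p-values therefore measure the spread between these libraries that was left after fitting 1 factor of unwanted variation.

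Library totals ranged from 2663936 to 30133731 counts, the smallest being those of Ctr 72 h replicates 3 and 2 (2663936 and 5793721). Markers of CA1 pyramidal cells (Wfs1, Pou3f1, Fibcd1 and Mpped1) were present in every library, with a summed level of 703.8 to 1406.7 CPM (counts scaled to a common library size) in controls. In 6 libraries, 11 genes typical of sensory ganglia, a tissue outside the brain, summed to 308.7 CPM or more: 1695.5 in Ctr 72 h replicate 2, 885.3 in SE 72 h replicate 1, 792 in SE 36 h replicate 3, 639.3 in SE 12 h replicate 1, 465.4 in SE 72 h replicate 2 and 308.7 in SE 6 h replicate 3. The other 18 libraries were at 3.7 to 72.7 CPM. The counts of members given below were therefore repeated with these 18 libraries alone, a choice made after the values had been seen. There, SE 72 h kept replicate 3 alone, so no count is given at 72 h. SE 6, 12 and 36 h and Ctr 72 h each lacked 1 library. At 12 and 36 h, 9 members each were called, beside 5104 and 3897 of 18375 genes. At 6 and 24 h, 4 and 8 members were called, beside 3593 and 4480 genes. At 6 h these 4 lacked Has2 and included Tnr.

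Levels in controls were compared first. Because the number of reads grows with transcript length, levels of different genes are compared as CPM per kilobase of exon. Over the 9 Ctr libraries, Bcan (brevican) had the highest level, 41.5 ± 3.79 CPM per kb (SD, n = 9), followed by Ncan (neurocan) at 29.8 ± 3.63 and Hapln4, a link protein of the adult brain, at 24.97 ± 9.14. The neighbours Ncan and Hapln4 did not differ by more than their spread. Tnr (tenascin R), which crosslinks lecticans, stood at 13.004 ± 2.17 and Hapln1, the link protein typical of nets, at 4.63 ± 0.788 CPM per kb. Below these lay Cd44 at 1.65 ± 3.19, Vcan (versican) at 1.48 ± 0.1004, Tnc (tenascin C) at 1.16 ± 0.496 and Acan (aggrecan, the defining lectican of most nets) at 0.513 ± 0.135 CPM per kb, and the order of Cd44, Vcan and Tnc was not resolved by their spread. The Cd44 mean was carried by Ctr 72 h replicate 2 (10.1 CPM per kb), and the other 8 controls had 0.594 ± 0.302 CPM per kb, below Vcan and Tnc. Has2 was lowest, at 0.0898 ± 0.0416 CPM per kb, with 0 to 9 counts per control library.

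After SE this order changed. At 24 h, Cd44 (56.7 ± 9.97 CPM per kb; SD, n = 3) and Ncan (55.9 ± 4.62) shared the top, Tnc stood at 38.2 ± 24.5, and Bcan had dropped to the seventh place at 6.17 ± 0.747. At 72 h, Ncan led at 67.2 ± 13.5, and Cd44 (23.2 ± 3.08), Bcan (16.5 ± 1.97) and Hapln4 (15.8 ± 5.13) followed.

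**Figure D1:**
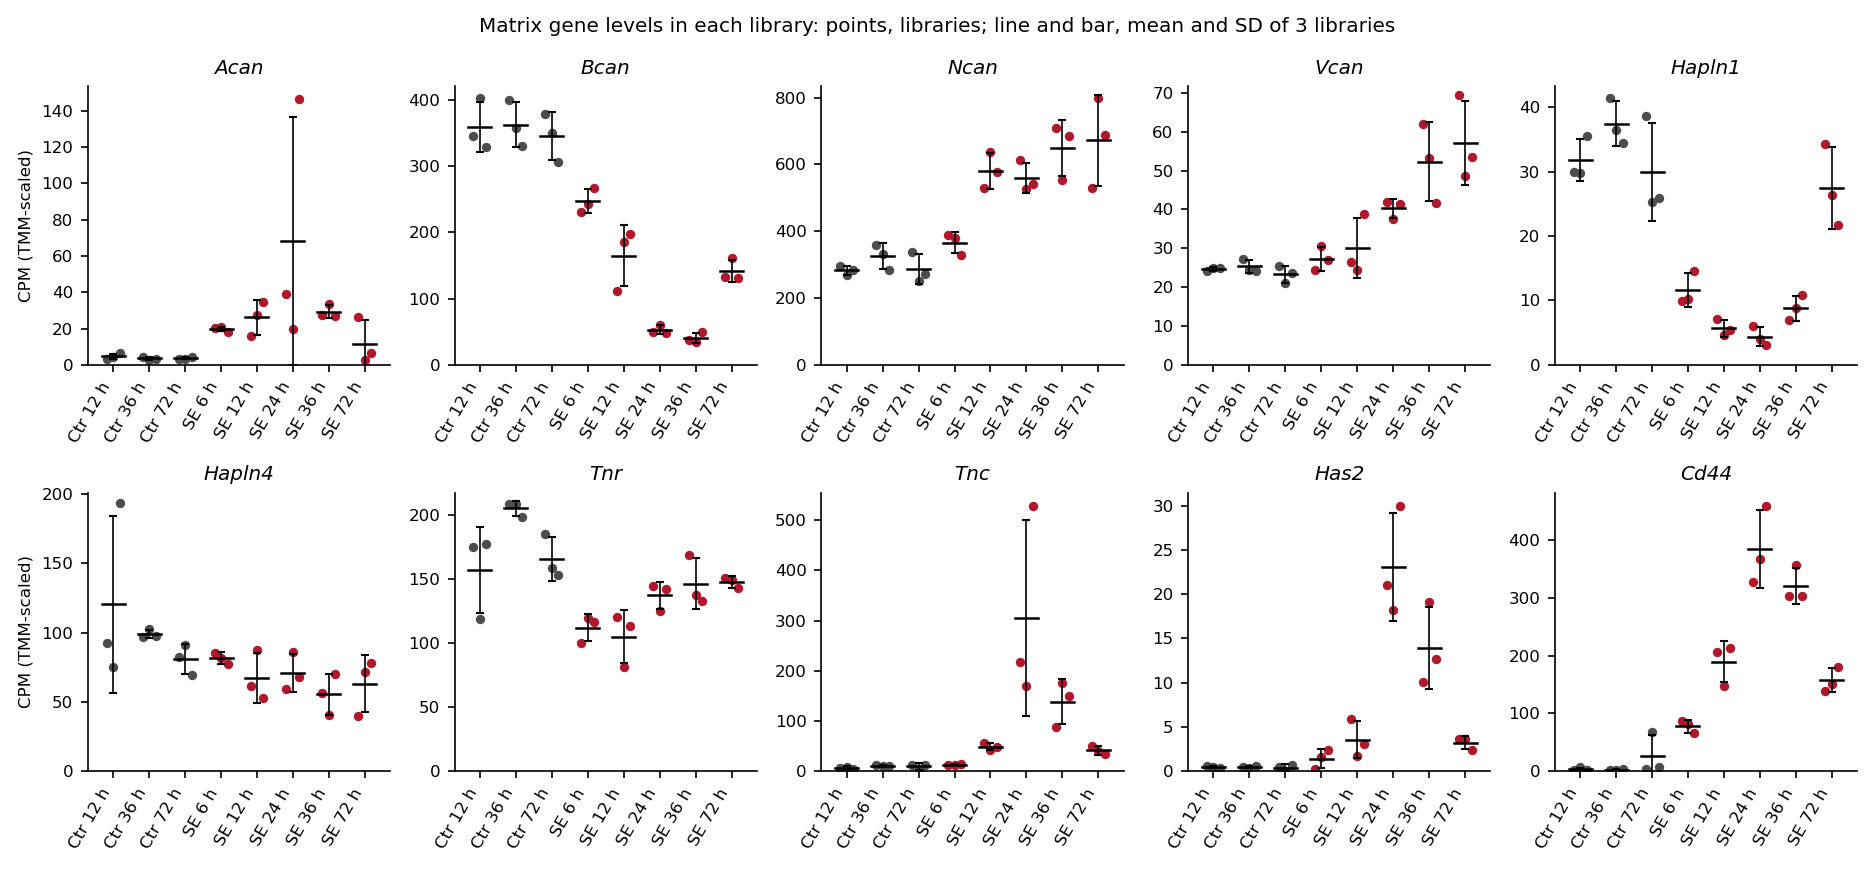
Level of the 10 genes in each of the 24 libraries, in CPM on a linear axis from 0, 1 panel per gene, by group (Ctr 12, 36 and 72 h, then SE 6, 12, 24, 36 and 72 h). Points are libraries, and the bar and whiskers are the mean ± SD of 3. Bcan lies between 35.1 and 60.3 CPM at 24 and 36 h after SE against 307 to 403 CPM in controls, and the Cd44 libraries from 12 h after SE on (140 to 459 CPM) lie above every control, of which Ctr 72 h replicate 2 (68.6 CPM) is the highest.

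SE was compared with the control group of the same time at 12, 36 and 72 h, to ask how the matrix genes differed after SE. A gene is called here when its log2 fold change (log2FC) was at least 0.66 in size with an adjusted p of 0.05 or less, in the quasi-likelihood test of edgeR, where p-values were adjusted over 18153 genes by the Benjamini-Hochberg method. Every adjusted p below comes from this test, and ± after a log2FC is the standard error. At 12 h, 5 members rose (Acan, Ncan, Tnc, Has2 and Cd44) and 3 fell (Bcan, Hapln1 and Hapln4), where 25.2% of all genes tested were called, 13.9% higher and 11.4% lower. At 36 h, 6 rose (the same 5 and Vcan) and 3 fell (the same 3), against a background of 21.6% (12.7% higher, 8.91% lower). At 72 h, 5 rose (Ncan, Vcan, Tnc, Has2 and Cd44) and 1 fell (Bcan), against 19.4% (15.2% higher, 4.21% lower). The median log2FC of the 10 was 0.65, 1.02 and 1.26 at the 3 times, beside 0.01, 0.00 and 0.10 over all genes. The 6 h and 24 h groups have no control of their own time and were compared with the mean of the 3 Ctr groups, which they therefore share with each other. At 6 h, 3 members rose (Acan, Has2 and Cd44) and 1 fell (Hapln1), beside a background of 22% (15.8% higher, 6.21% lower), and at 24 h 6 rose (Acan, Ncan, Vcan, Tnc, Has2 and Cd44) and 2 fell (Bcan and Hapln1), beside 24.1% (14.9% higher, 9.21% lower).

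**Figure D2:**
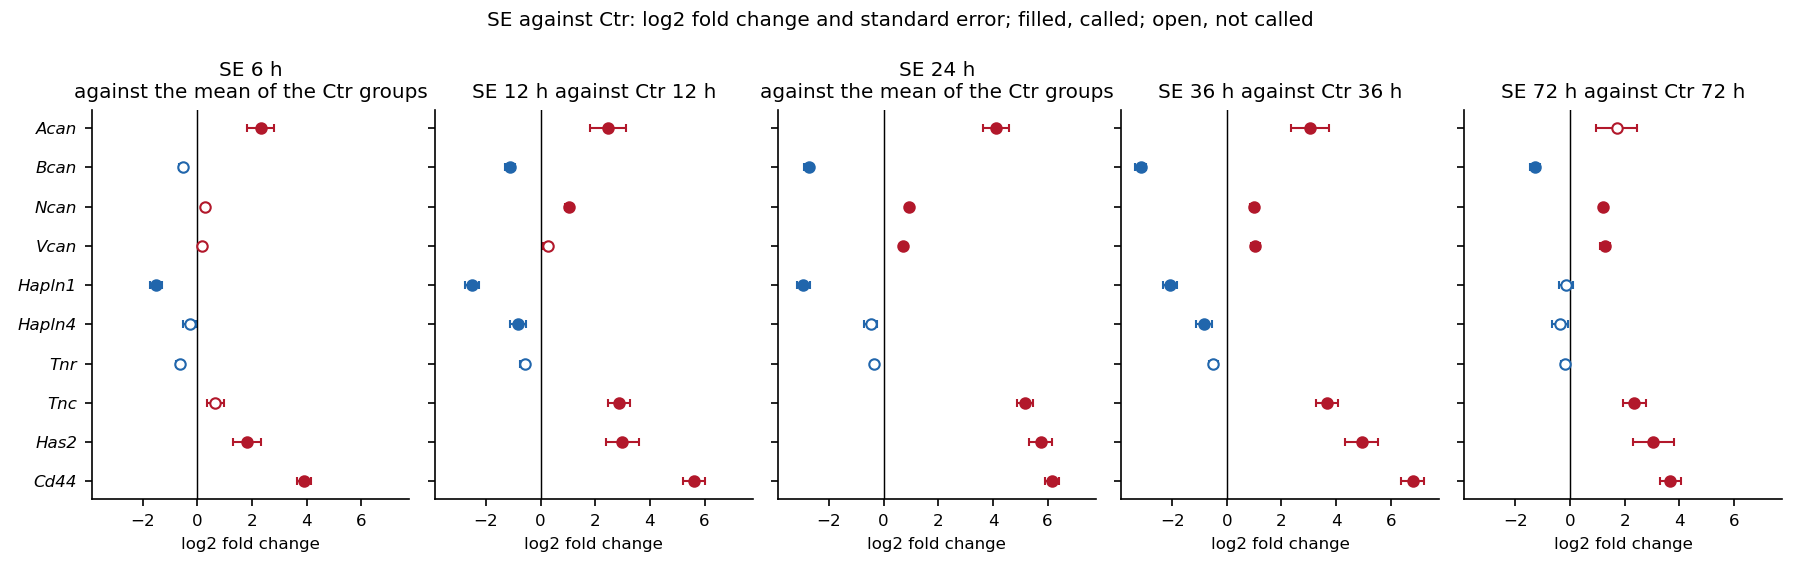
log2FC of the 10 genes in the 5 comparisons of SE with controls, 1 panel per comparison (12, 36 and 72 h against the Ctr group of that time, 6 and 24 h against the mean of the 3 Ctr groups), with whiskers of 1 standard error. Filled points were called (log2FC at least 0.66 in size, adjusted p 0.05 or less). The Cd44 point is highest in all 5 panels, up to 6.81 at 36 h, and the lowest point is Bcan (-3.15) at 36 h and Hapln1 (-2.94) at 24 h. The controls differ between these panels. Against the mean of the 3 Ctr groups, Cd44 at 36 h was 5.96, below 6.17 at 24 h.

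Among the lecticans, the members moved in opposite directions. Bcan fell at 12, 36 and 72 h. At 12 h it had 112, 186 and 197 CPM after SE against 346, 403 and 330 CPM in Ctr, a log2FC of -1.13 ± 0.18 (0.458-fold, adjusted p = 5.93e-05). The lowest levels came at 36 h, with 37.9, 35.1 and 49.7 CPM against 400, 358 and 331 CPM, a log2FC of -3.15 ± 0.19 (0.113-fold, adjusted p = 4.75e-10). All 3 SE libraries lay below all controls at each of the 5 times. At 72 h, 133, 161 and 131 CPM stood against 379, 351 and 307 CPM (log2FC -1.29 ± 0.18, adjusted p = 1.76e-05). At 24 h, 50.3, 60.3 and 48.3 CPM gave -2.75 ± 0.17 against the mean of the controls (adjusted p = 1.59e-10). At 6 h, 231, 243 and 267 CPM gave -0.53 ± 0.15 (adjusted p = 0.00733), below the size required for a call.

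Ncan, whose protein is most abundant in the developing brain, rose at 12, 24, 36 and 72 h. At 12 h, 529, 636 and 576 CPM after SE stood against 295, 269 and 285 CPM in Ctr, a log2FC of 1.03 ± 0.14 (2.05-fold, adjusted p = 1.35e-05). At 36 h, 710, 554 and 685 CPM stood against 359, 333 and 282 CPM (1.00 ± 0.14, adjusted p = 1.77e-05). At 72 h, 529, 798 and 688 CPM stood against 337, 251 and 273 CPM (1.22 ± 0.14, 2.34-fold, adjusted p = 2.1e-06). No SE library from 12 h on overlapped with any control. At 24 h, 612, 526 and 540 CPM gave a log2FC of 0.91 ± 0.11 (adjusted p = 1.43e-06), and at 6 h, 389, 379 and 329 CPM gave 0.30 ± 0.11 (adjusted p = 0.041), under the size for a call.

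Vcan, a lectican of oligodendrocyte precursors, vessel walls and provisional matrix, rose later. At 12 h, 26.5, 24.5 and 38.8 CPM overlapped with 24.1, 24.9 and 24.98 CPM in Ctr (log2FC 0.27 ± 0.17, adjusted p = 0.207). At 36 h, 61.9, 53.4 and 41.7 CPM lay above 27.3, 24.5 and 24.2 CPM (1.04 ± 0.17, 2.06-fold, adjusted p = 7.8e-05). At 72 h, 69.3, 48.5 and 53.5 CPM lay above 25.3, 20.97 and 23.6 CPM (1.29 ± 0.17, 2.45-fold, adjusted p = 1.29e-05). The log2FC at 72 h exceeded that at 12 h by 1.02 ± 0.24 (adjusted p = 0.00528 for the difference), and 22.2% of all genes differed between these 2 effects (14% higher, 8.2% lower). With a factor for the ranges into which the label numbers fall, this difference was 0.79 (adjusted p = 0.0932). At 24 h, 41.8, 37.4 and 41.5 CPM gave 0.72 ± 0.13 (adjusted p = 0.000211), and at 6 h, 24.3, 30.6 and 26.9 CPM gave 0.15 ± 0.14 (adjusted p = 0.388).

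Acan rose at 6, 12, 24 and 36 h, from a low control level. At 12 h, 16.003, 27.4 and 34.8 CPM stood against 3.22, 4.35 and 6.26 CPM, a log2FC of 2.46 ± 0.66 (5.51-fold, adjusted p = 0.00591). At 36 h, 27.4, 33.4 and 26.9 CPM stood against 4.39, 2.87 and 3.37 CPM (3.05 ± 0.68, 8.29-fold, adjusted p = 0.00184). The 6 h libraries, at 20.1, 20.6 and 18.3 CPM, were already above all 9 controls (2.32 ± 0.50, 5.01-fold, adjusted p = 0.00101). At 24 h the 3 libraries were far apart, with 38.9, 19.9 and 146 CPM (4.12 ± 0.48, 17.4-fold, adjusted p = 9.78e-07), and without replicate 3 the log2FC was 2.89. At 72 h they were farther apart still, with 26.4, 2.48 and 6.24 CPM against 3.38, 3.41 and 4.50 CPM in Ctr, so the groups overlapped and the log2FC of 1.71 ± 0.75 was not called (adjusted p = 0.0965). Its value hung on single libraries: 0.32 without SE 72 h replicate 1 (adjusted p = 0.788), and 2.17, then called, without replicate 2 (adjusted p = 0.0297). SE 72 h replicate 1 was also the library with 229.5 CPM of 3 dentate granule cell markers, where the other SE 72 h libraries had 16.4 and 23.8 CPM, and their part in the Acan value was not tested.

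The opposite movement of Bcan and Ncan turned the lectican mix over. The 4 lecticans together had 73.3 ± 6.44 CPM per kb over the 9 Ctr libraries (SD, range 65.1 to 84.7) and, mean totals of 69.6, 82.5, 73.4, 76.7 and 88.7 in the SE groups, in order of time. The totals of 2 libraries at 12 h and 2 at 72 h exceeded the highest control total, and the totals were not tested. In Ctr, Bcan made up 57.8% ± 3.46, 55.1% ± 0.944 and 56.9% ± 3.02 of this total at 12, 36 and 72 h (SD, n = 3 each), and Ncan 39.3% ± 3.29, 42.3% ± 1.12 and 40.4% ± 2.87. Over the 5 SE times from 6 to 72 h, the share of Bcan was 41.4% ± 3.78, 22.97% ± 3.89, 8.57% ± 2.07, 6.21% ± 0.945 and 18.7% ± 1.54. The share of Ncan was 52.6% ± 3.72, 70.8% ± 5.08, 76.8% ± 8.77, 84.6% ± 1.72 and 75.3% ± 4.97 in the same order. Acan, below 1% on average in each Ctr group, took 11.3% ± 10.5 at 24 h, of which the 3 libraries held between 3.98% and 23.3%. These shares are descriptions of the same counts and carry no test of their own.

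**Figure D3:**
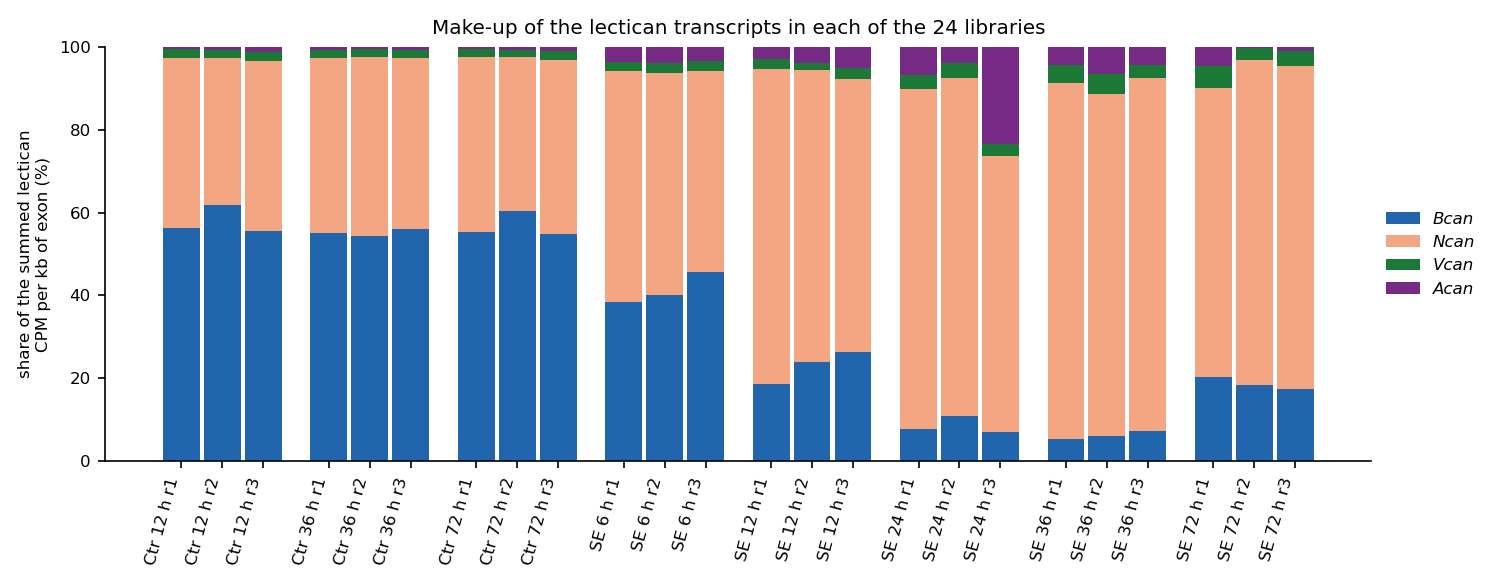
Share of each lectican (Acan, Bcan, Ncan, Vcan) in the summed lectican level, from CPM per kb of exon, as stacked bars from 0 to 100% with 1 bar for each of the 24 libraries, ordered by group. Bcan is the largest part of every control bar and Ncan of every SE bar, and the Bcan share is smallest at 36 h (mean 6.21%).

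Both link proteins were called down at 12 and 36 h and neither at 72 h, and only Hapln1 was called at 6 and 24 h. Hapln1 fell at 6, 12, 24 and 36 h and was not called at 72 h. At 12 h, 7.06, 4.57 and 5.34 CPM stood against 30.002, 29.8 and 35.6 CPM, a log2FC of -2.49 ± 0.26 (0.178-fold, adjusted p = 6.2e-07). At 36 h, 6.89, 8.75 and 10.8 CPM stood against 41.4, 36.4 and 34.5 CPM (-2.08 ± 0.25, 0.236-fold, adjusted p = 2.95e-06). The 6 h libraries (9.91, 10.2 and 14.6 CPM; -1.502 ± 0.22, adjusted p = 2.11e-05) and the 24 h libraries (6.05, 4.01 and 3.08 CPM; -2.94 ± 0.24, adjusted p = 9.9e-09) all lay below the 9 controls. At 72 h, 34.3, 26.3 and 21.7 CPM overlapped with 38.7, 25.2 and 25.9 CPM (-0.14 ± 0.24, adjusted p = 0.715). The SE effect at 72 h was higher than that at 12 h by 2.35 ± 0.35 (adjusted p = 0.000163) and than that at 36 h by 1.94 ± 0.35 (adjusted p = 0.00434, with 5.35% of all genes differing between the 36 and 72 h effects, 3.92% higher and 1.43% lower).

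Hapln4 had 61.5, 87.2 and 53.1 CPM at 12 h after SE against 92.7, 74.99 and 193 CPM in Ctr, and 56.4, 40.5 and 70.1 CPM at 36 h against 96.9, 102 and 97.3 CPM. The groups overlapped at 12 h and did not at 36 h, and both comparisons were called down, with log2FC of -0.83 ± 0.29 (adjusted p = 0.0285) and -0.83 ± 0.29 (adjusted p = 0.0356). The call at 12 h rested on Ctr 12 h replicate 3: without it the log2FC was -0.31 (adjusted p = 0.377), and it was also lost without SE 12 h replicate 1 (adjusted p = 0.0785) or 3 (adjusted p = 0.118). At 36 h the call was lost without any 1 of the 3 controls or of SE replicates 1 and 2, with adjusted p from 0.0691 to 0.152. Ctr 12 h replicate 3 also had the highest sum of CA3 markers among the controls, 251.6 CPM where the others had 48.0 to 95.2. It was highest too in markers of CA2 (319.8 against 160.6 to 225.7 CPM), dentate granule cells (88.7 against 3.24 to 47.4 CPM) and neurons (9808.6 against 6779.4 to 7972.8 CPM) and lowest in those of fibroblasts and vessel walls (118.2 CPM), and their part in the Hapln4 value was not tested. The other times gave 39.7, 71.5 and 78.1 CPM at 72 h (log2FC -0.35 ± 0.30, adjusted p = 0.404), 85.6, 81.7 and 77.2 CPM at 6 h (-0.28 ± 0.24, adjusted p = 0.382) and 59.1, 85.8 and 68.2 CPM at 24 h (-0.47 ± 0.24, adjusted p = 0.129). Hapln4 lies on the opposite strand from Ncan and shares 1255 exon bases with it, 31.3% of the 4008 exon bases of Hapln4. Counting ignored the strand, so reads from this stretch cannot be assigned to either gene with certainty and may be missing from both counts. The CPM per kb of Hapln4 divide by all 4008 bases, so its level per kb may be too low and its rank beside Ncan is uncertain. The same 1255 bases are 12.6% of the 9998 exon bases of Ncan. The level per kb of Ncan and its share of the lecticans may therefore be too low as well.

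The tenascins differed from each other. Tnc, which is scarce in the adult brain and made by astrocytes after injury, rose at 12, 24, 36 and 72 h. At 12 h, 55.6, 41.8 and 49.0 CPM stood against 7.29, 9.40 and 4.29 CPM in Ctr, a log2FC of 2.86 ± 0.40 (7.24-fold, adjusted p = 1.93e-05). At 36 h, 88.8, 176 and 150 CPM stood against 13.5, 9.66 and 10.1 CPM (3.65 ± 0.40, 12.6-fold, adjusted p = 9.87e-07). The highest levels were those at 24 h, 217, 169 and 528 CPM (5.17 ± 0.28, 36.0-fold, adjusted p = 2.12e-11), with 4.50 when replicate 3 was left out. At 72 h, 50.8, 39.9 and 34.4 CPM stood against 13.2, 2.39 and 13.1 CPM (2.36 ± 0.43, 5.14-fold, adjusted p = 0.000392). No SE library from 12 h on overlapped with a control, and at 6 h, 13.3, 11.9 and 14.7 CPM did overlap (0.65 ± 0.32, adjusted p = 0.11). At 72 h the log2FC was 1.68 without Ctr 72 h replicate 2 (adjusted p = 0.00469). It was 1.38 in the 18 libraries low in sensory ganglion markers, where SE 72 h replicate 3 stands alone.

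Tnr passed the adjusted p at 6, 12, 24 and 36 h, with log2FC too small for a call. It had 121, 81.6 and 113 CPM at 12 h against 175, 118 and 177 CPM in Ctr (log2FC -0.58 ± 0.15, adjusted p = 0.00537), and 169, 138 and 133 CPM at 36 h against 209, 209 and 199 CPM (-0.49 ± 0.15, adjusted p = 0.0186). The 12 h groups overlapped and the 36 h groups did not. At 6 h, 99.7, 120 and 117 CPM gave -0.64 ± 0.13 (adjusted p = 0.000608), at 24 h, 144, 124.9 and 142 CPM gave -0.35 ± 0.13 (adjusted p = 0.0331), and at 72 h, 151, 149 and 143 CPM against 185, 158 and 153 CPM gave -0.17 ± 0.15 (adjusted p = 0.454). At 12 h the size passed the threshold without Ctr 12 h replicate 2 (-0.71) or SE 12 h replicate 1 (-0.69), and at 6 h without any 1 of Ctr 12 h replicate 2, Ctr 72 h replicate 3, or SE 6 h replicates 2 and 3 (-0.66 to -0.69).

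Has2 makes long hyaluronan chains, and Cd44 binds them. Cd44 had the greatest log2FC of the 10 members in all 5 comparisons, though at 72 h it was 2.59 without Ctr 72 h replicate 1, below Has2 (3.69). Has2 came next at 12, 24, 36 and 72 h, but at 12 and 72 h its lead over Tnc was within its standard error, and in the 18 libraries at 12 h Has2 (2.37) was below Acan and Tnc (both 2.74). Has2 had 5.86, 1.76 and 3.11 CPM at 12 h after SE against 0.5679, 0.484 and 0.348 CPM in Ctr, a log2FC of 2.99 ± 0.61 (7.92-fold, adjusted p = 0.000726). Without SE 12 h replicate 1 it was 2.39. At 36 h, 10.1, 19.1 and 12.7 CPM stood against 0.432, 0.365 and 0.575 CPM (4.93 ± 0.61, 30.5-fold, adjusted p = 4.21e-06). At 24 h, 21.03, 18.2 and 29.99 CPM gave 5.74 ± 0.42 (53.6-fold, adjusted p = 1.48e-09). All these libraries lay above the 9 controls. At 72 h, 3.67, 3.62 and 2.39 CPM stood against 0.506, 0 and 0.750 CPM (3.06 ± 0.76, 8.32-fold, adjusted p = 0.00488), without overlap. That value was 3.69 without Ctr 72 h replicate 1 and 2.07 in the 18 libraries, where SE 72 h replicate 3 stands alone. Has2 at 72 h was not called by limma-voom (adjusted p = 0.0924). At 6 h, 0.240, 1.67 and 2.42 CPM overlapped with the controls, and the call (1.81 ± 0.51, adjusted p = 0.00763) was lost without replicate 3 (1.102, adjusted p = 0.199), with limma-voom (1.35, adjusted p = 0.184) and in the 18 libraries (0.80, adjusted p = 0.194).

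Cd44 rose in all 5 comparisons. At 12 h, 207, 148 and 214 CPM stood against 2.37, 6.77 and 2.59 CPM in Ctr, a log2FC of 5.61 ± 0.40 (48.7-fold, adjusted p = 9.3e-09), or 6.31 without Ctr 12 h replicate 2. At 36 h, 303, 356 and 303 CPM stood against 2.45, 2.51 and 3.94 CPM (6.81 ± 0.42, 112-fold, adjusted p = 6.57e-10). At 24 h, 327, 367 and 459 CPM gave 6.17 ± 0.26 (72.2-fold, adjusted p = 5.96e-13), and at 6 h, 86.2, 81.1 and 65.6 CPM gave 3.89 ± 0.26 (14.9-fold, adjusted p = 1.17e-09). Every SE library from 12 h on lay above every control, whereas SE 6 h replicate 3 lay just below Ctr 72 h replicate 2. That control is part of the mean used at 6 and 24 h. Without it the log2FC was 4.34 at 6 h and 6.63 at 24 h. Against the mean of the 3 Ctr groups, the 36 h log2FC was 5.96, below the 6.17 of 24 h.

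At 72 h, Cd44 had 140, 152 and 180 CPM against 4.05, 68.6 and 7.50 CPM (3.67 ± 0.39, 12.7-fold, adjusted p = 6.79e-07). The middle control, Ctr 72 h replicate 2, is the second smallest library and the one with 1695.5 CPM of sensory ganglion markers, and their part in its Cd44 value was not tested. Without it the log2FC was 4.97, and without Ctr 72 h replicate 1 it was 2.59. The group means were 157 and 26.7 CPM, and the 12.7-fold value depends on the fitted factor of unwanted variation (RUVr). That factor was 0.797 in Ctr 72 h replicate 2 and -0.383 and -0.374 in the other Ctr 72 h libraries. With no RUVr factor the log2FC was 2.54 ± 0.58 (adjusted p = 0.00338 in edgeR), and with a sensory ganglion score in its place 2.75. The SE effect on Cd44 at 72 h was lower than at 12 h by 1.93 ± 0.53 (log2, adjusted p = 0.0135) and than at 36 h by 3.14 ± 0.54 (adjusted p = 0.00344). Neither difference was called without Ctr 72 h replicate 2, where they were -0.64 (adjusted p = 0.382) and -1.81 (adjusted p = 0.0534).

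Time after SE was next compared from one SE group to the next, with a call needing an absolute log2FC of at least 1. Of 40 comparisons of a member between consecutive times, 11 were called. From 6 to 12 h, Tnc rose by 1.88 ± 0.38 on the log2 scale (adjusted p = 0.00989), Cd44 rose by 1.29 ± 0.32 (adjusted p = 0.0253), and Hapln1 fell by 1.04 (± 0.25, adjusted p = 0.0236), where 1.34% of all genes were called (0.446% higher, 0.898% lower). From 12 to 24 h, where 3.18% were called (1.47% higher, 1.72% lower), Tnc rose by a further 2.64 ± 0.37 (adjusted p = 0.000411), Has2 rose by 2.68 ± 0.50 (adjusted p = 0.00313) and Bcan fell by 1.63 (± 0.18, adjusted p = 3.86e-05). From 24 to 36 h, 0 members were called in edgeR, against 0.529% of all genes, though 4 had an unadjusted p under 0.05, namely Bcan (-0.37), Vcan (0.37), Hapln1 (1.04, all 3 libraries higher) and Tnc (-1.14). From 36 to 72 h, where 4.13% were called (3.08% higher, 1.05% lower), 5 members were called. Bcan rose by 1.79 ± 0.18 (adjusted p = 7.05e-06) and Hapln1 by 1.63 ± 0.25 (adjusted p = 0.000336), while Tnc fell by 1.72 (± 0.36, adjusted p = 0.00538), Has2 fell by 2.11 (± 0.50, adjusted p = 0.0105) and Cd44 fell by 1.02 (± 0.31, adjusted p = 0.0412).

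The difference of the SE effects themselves, each against its own controls, was called in 7 of 30 comparisons of a member. Besides those of Vcan, Hapln1 and Cd44 given above, the effect on Bcan was lower at 36 h than at 12 h, by 2.02 ± 0.25 on the log2 scale (adjusted p = 0.000778, where 3.83% of all genes differed, 2.21% higher and 1.62% lower), and higher at 72 h than at 36 h, by 1.86 ± 0.25 (adjusted p = 0.00052). Among the control groups alone, 1 member was called: Cd44 was higher in Ctr 72 h than in Ctr 36 h (2.12 ± 0.44, adjusted p = 0.0177, background 1.97%, with 0.711% higher and 1.26% lower), and without Ctr 72 h replicate 2 the count was 0. No member was called between Ctr 72 h and Ctr 12 h (0.931% of all genes) or between Ctr 36 h and Ctr 12 h, where edgeR called 0 genes and 648 had an unadjusted p under 0.05.

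All these levels are of whole CA1 tissue, in which fewer cells of a type and less RNA per cell cannot be told apart. Astrocyte markers (Aqp4, Gfap, Aldh1l1, Slc1a2, Slc1a3 and Gja1), from cells that make Bcan, Ncan and Tnc, summed to 3535.8 to 4878.7 CPM in controls, 5132 to 8104 CPM from 6 to 24 h, 6335 to 8704.7 CPM at 36 h and 11611.9 to 13319.4 CPM at 72 h. Of these 6 markers 1 rose at 6 h, 2 rose and 1 fell at 12 h, and 2 rose and 3 fell at 24 h. At 36 h 3 rose and 3 fell, and at 72 h 3 rose, so the sums do not stand for every marker. Bcan was thus lowest, at 36 h, in libraries whose astrocyte sums lay above those of all controls, and the part of these sums in the members' changes was not tested. Microglia markers summed to 221.9 to 305.3 CPM in controls, and were lower at 6 h (119.4 to 125.6) and 12 h (143.2 to 162.8). They reached 668.7 to 1003.9 CPM at 72 h, when all 6 rose. Of these 6 markers 5 fell at 6 h and 2 at 12 h, 1 rose and 1 fell at 24 h, and 3 rose and 1 fell at 36 h. Markers of oligodendrocyte precursors, which express Vcan, summed to 258.7 to 365.2 CPM in controls and 468.6 to 706.3 CPM at 72 h, with 1 of 6 lower at 12 h, 3 higher and 1 lower at 36 h, and 3 higher at 72 h. PV interneuron markers (8 genes), of the cells that carry most nets, summed to 600.9 to 1043.5 CPM in controls and to 479.3, 521.0 and 652.5 CPM at 72 h, with 3, 2 and 4 of 8 lower at 12, 36 and 72 h and none higher. CA1 pyramidal markers summed to 703.8 to 1406.7 CPM in controls and to 293.2, 611.0 and 644.5 CPM at 72 h, and 3 of 4 fell at 36 h and 2 of 4 at 72 h. The lowest sum was that of SE 72 h replicate 1, the library with 229.5 CPM of dentate granule and 885.3 CPM of sensory ganglion markers. Of 7 markers of infiltrating leukocytes, 3 were in the table, and 1 of the 3 rose at each of 12, 36 and 72 h. Endothelial markers summed to 130 to 181.1 CPM in controls and to 216.1 to 367.8 CPM in the SE libraries, with 3, 2 and 2 of 4 higher at 12, 36 and 72 h, and 4 of 4 higher at 24 h. Of 6 markers of fibroblasts and vessel walls, where Vcan is also expressed, none rose at 12 h, 4 at 36 h and 1 at 72 h, and their sums in controls (118.2 to 392.2 CPM) and after SE (127.9 to 307.9 CPM) overlapped. CA2 markers summed to 160.6 to 319.8 CPM in controls and to 73.7 to 102.5 CPM at 36 h, when 2 of 4 fell and 1 rose. The part of these cell types in the members' changes was not tested either.

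**Figure D4:**
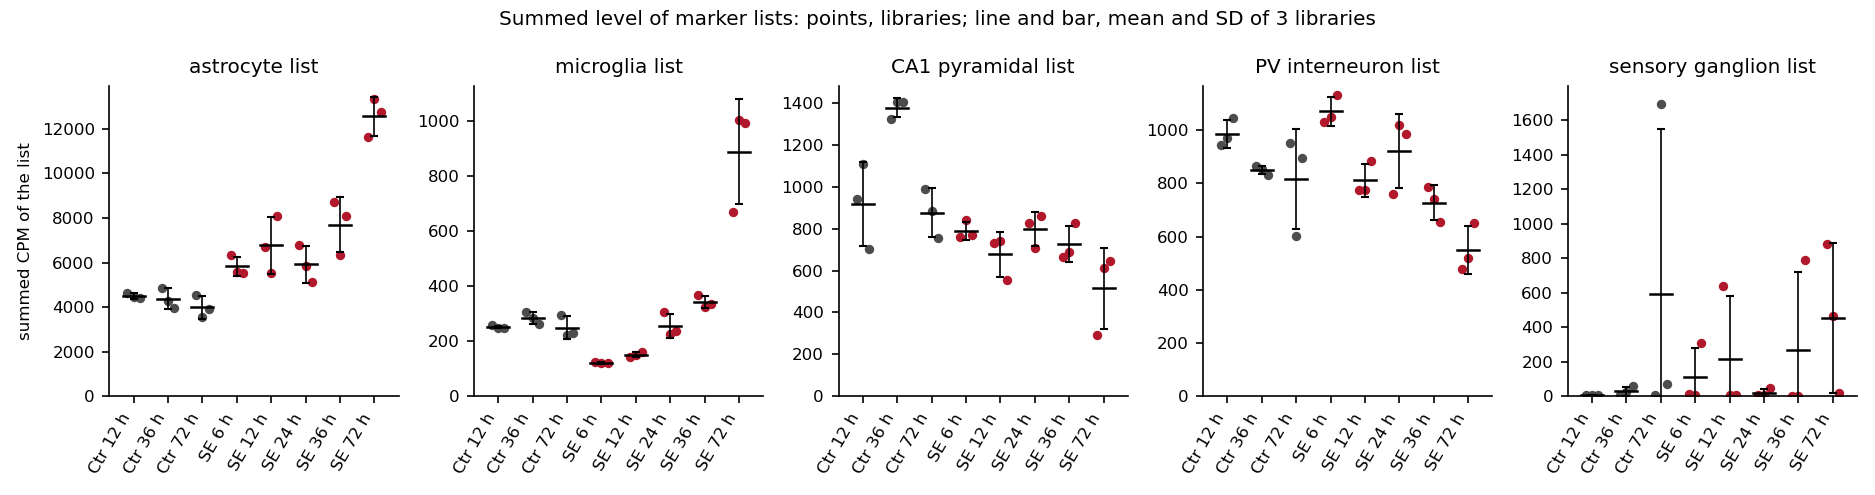
Summed CPM of the markers of astrocytes, microglia, CA1 pyramidal cells, PV interneurons and sensory ganglia, 1 panel each, by group. Points are libraries, and the bar and whiskers are the mean ± SD of 3. The astrocyte sums at 72 h (11611.9 to 13319.4 CPM) lie above all others, and the sensory ganglion sum is high in 6 scattered libraries, the highest being Ctr 72 h replicate 2 (1695.5 CPM).

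The other genes of this matrix were counted in 5 lists. Beside these counts, 25.2% of all genes tested were called at 12 h (13.9% higher, 11.4% lower). At 36 h the share was 21.6% (12.7% higher, 8.91% lower), and at 72 h 19.4% (15.2% higher, 4.21% lower). A count near these shares says little about its list. Of 8 genes for hyaluronan synthesis and breakdown other than Has2, 2 rose at 12 h, 3 at 36 h and 2 at 72 h, and none fell (median log2FC 0.51, 0.59 and 0.52). Cemip2, a cell surface protein linked to hyaluronan breakdown, had 56.6, 47.2 and 71.5 CPM at 12 h against 15.6, 13.96 and 15.7 CPM (log2FC 1.95 ± 0.24, adjusted p = 3.72e-06) and rose at 36 h by 1.59 ± 0.24. Ugdh, the enzyme that makes the UDP-glucuronate used for hyaluronan and chondroitin sulfate, rose by 1.05 ± 0.20 at 12 h (adjusted p = 0.000398) and by 0.95 ± 0.20 at 36 h. At 72 h the called genes were the hyaluronidases Hyal1 (1.85 ± 0.29, adjusted p = 8.32e-05) and Hyal2 (0.74 ± 0.16, adjusted p = 0.00166).

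Of 13 tested genes for hyaluronan-binding proteins and receptors, 6 rose and 3 fell at 12 h, 5 rose and 1 fell at 36 h, and 6 rose at 72 h (median log2FC 0.89, 1.30 and 1.06). Ptx3, a pentraxin that helps to crosslink hyaluronan in inflamed matrix, rose from 0.553 to 0.967 CPM in Ctr to 23.04 to 63.4 CPM at 12 h (5.79 ± 0.55, adjusted p = 2.7e-07), and also at 36 h (6.68 ± 0.61) and 72 h (5.75 ± 0.75). Lyve1, a hyaluronan receptor of lymphatic vessels and some macrophages, rose at 36 h by 2.93 ± 0.59 (adjusted p = 0.000686). Hmmr, a hyaluronan-mediated motility receptor that also marks dividing cells, had 10.2, 12.495 and 13.3 CPM at 72 h against 0.928, 0.171 and 1.4998 CPM (4.17 ± 0.68, adjusted p = 0.00012). Itih5, which codes for a heavy chain of the inter-alpha-trypsin inhibitor family, fell at 12 h by 1.46 (± 0.28, adjusted p = 0.000424). Itih4, of the same family, had 0 to 2 counts in the Ctr 12 h libraries and was at least 3.57-fold higher at 12 h, computed against 3 counts per library (adjusted p = 0.0168).

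Of 12 tested genes for other net and chondroitin sulfate proteoglycan partners, 3 rose and 1 fell at 12 h, and 2 rose and 1 fell at 36 h and at 72 h (median log2FC -0.11, 0.04 and 0.15). Nptx2, a pentraxin released by excitatory neurons that gathers glutamate receptors on PV cells within nets, had 386, 679 and 695 CPM at 12 h against 22.5, 10.6 and 18.5 CPM (5.13 ± 0.68, adjusted p = 1.09e-05), and rose at 36 h by 3.29 ± 0.62. Its receptor gene Nptxr fell at 72 h by 0.66 (± 0.23, adjusted p = 0.0366). Ptprf, of the receptor phosphatase family that binds chondroitin sulfate, rose at 12 h (1.39 ± 0.18) and 36 h (0.88 ± 0.18). Cspg5, a brain proteoglycan, fell at the same times, by 1.00 (± 0.19) and 0.78 (± 0.19). At 72 h, Cspg4 (NG2, a marker of oligodendrocyte precursors and pericytes) rose by 1.18 ± 0.19 and Ptprz1 (phosphacan, a partner of tenascins) by 0.95 ± 0.16.

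Of 10 genes for proteases that cut lecticans and an inhibitor, 5 rose and 1 fell at 12 h and at 36 h, and 3 rose at 72 h (median log2FC 1.22, 0.81 and 0.50). Adamts1, which cuts aggrecan, brevican and versican, had 183, 129 and 204 CPM at 12 h against 10.8, 16.6 and 19.2 CPM (3.45 ± 0.33, adjusted p = 2.65e-07). It rose by 4.26 ± 0.35 at 36 h and by 1.503 ± 0.33 at 72 h (adjusted p = 0.00182). Mmp3, stromelysin 1, had 0 counts in the Ctr libraries at 12 and 36 h and 0 to 1 at 72 h, and was at least 19.4-fold higher at 12 h, 4.27-fold at 36 h and 1.18-fold at 72 h, against 3 counts per library. Adamts20 fell by 0.82 (± 0.31) at 12 h and by 1.41 (± 0.32) at 36 h.

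Of 19 tested genes for chondroitin sulfate chains, 3 rose and 2 fell at 12 h, 4 rose and 1 fell at 36 h, and 5 rose at 72 h (median log2FC 0.27, -0.01 and 0.12). The sulfotransferases Chst3, for 6-sulfation, and Chst11, for 4-sulfation, rose together at 12 h (1.66 ± 0.28 and 1.61 ± 0.21) and 36 h (1.97 ± 0.27 and 1.32 ± 0.21). Chst12, another 4-sulfotransferase, fell by 0.88 (± 0.21) and 1.22 (± 0.21) at these times, and Csgalnact1, which starts the chains, fell at 12 h by 1.44 (± 0.24). At 72 h, Dse (1.40 ± 0.23) and Chst14 (1.11 ± 0.31), which together turn chondroitin into dermatan sulfate, rose.

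**Figure D5:**
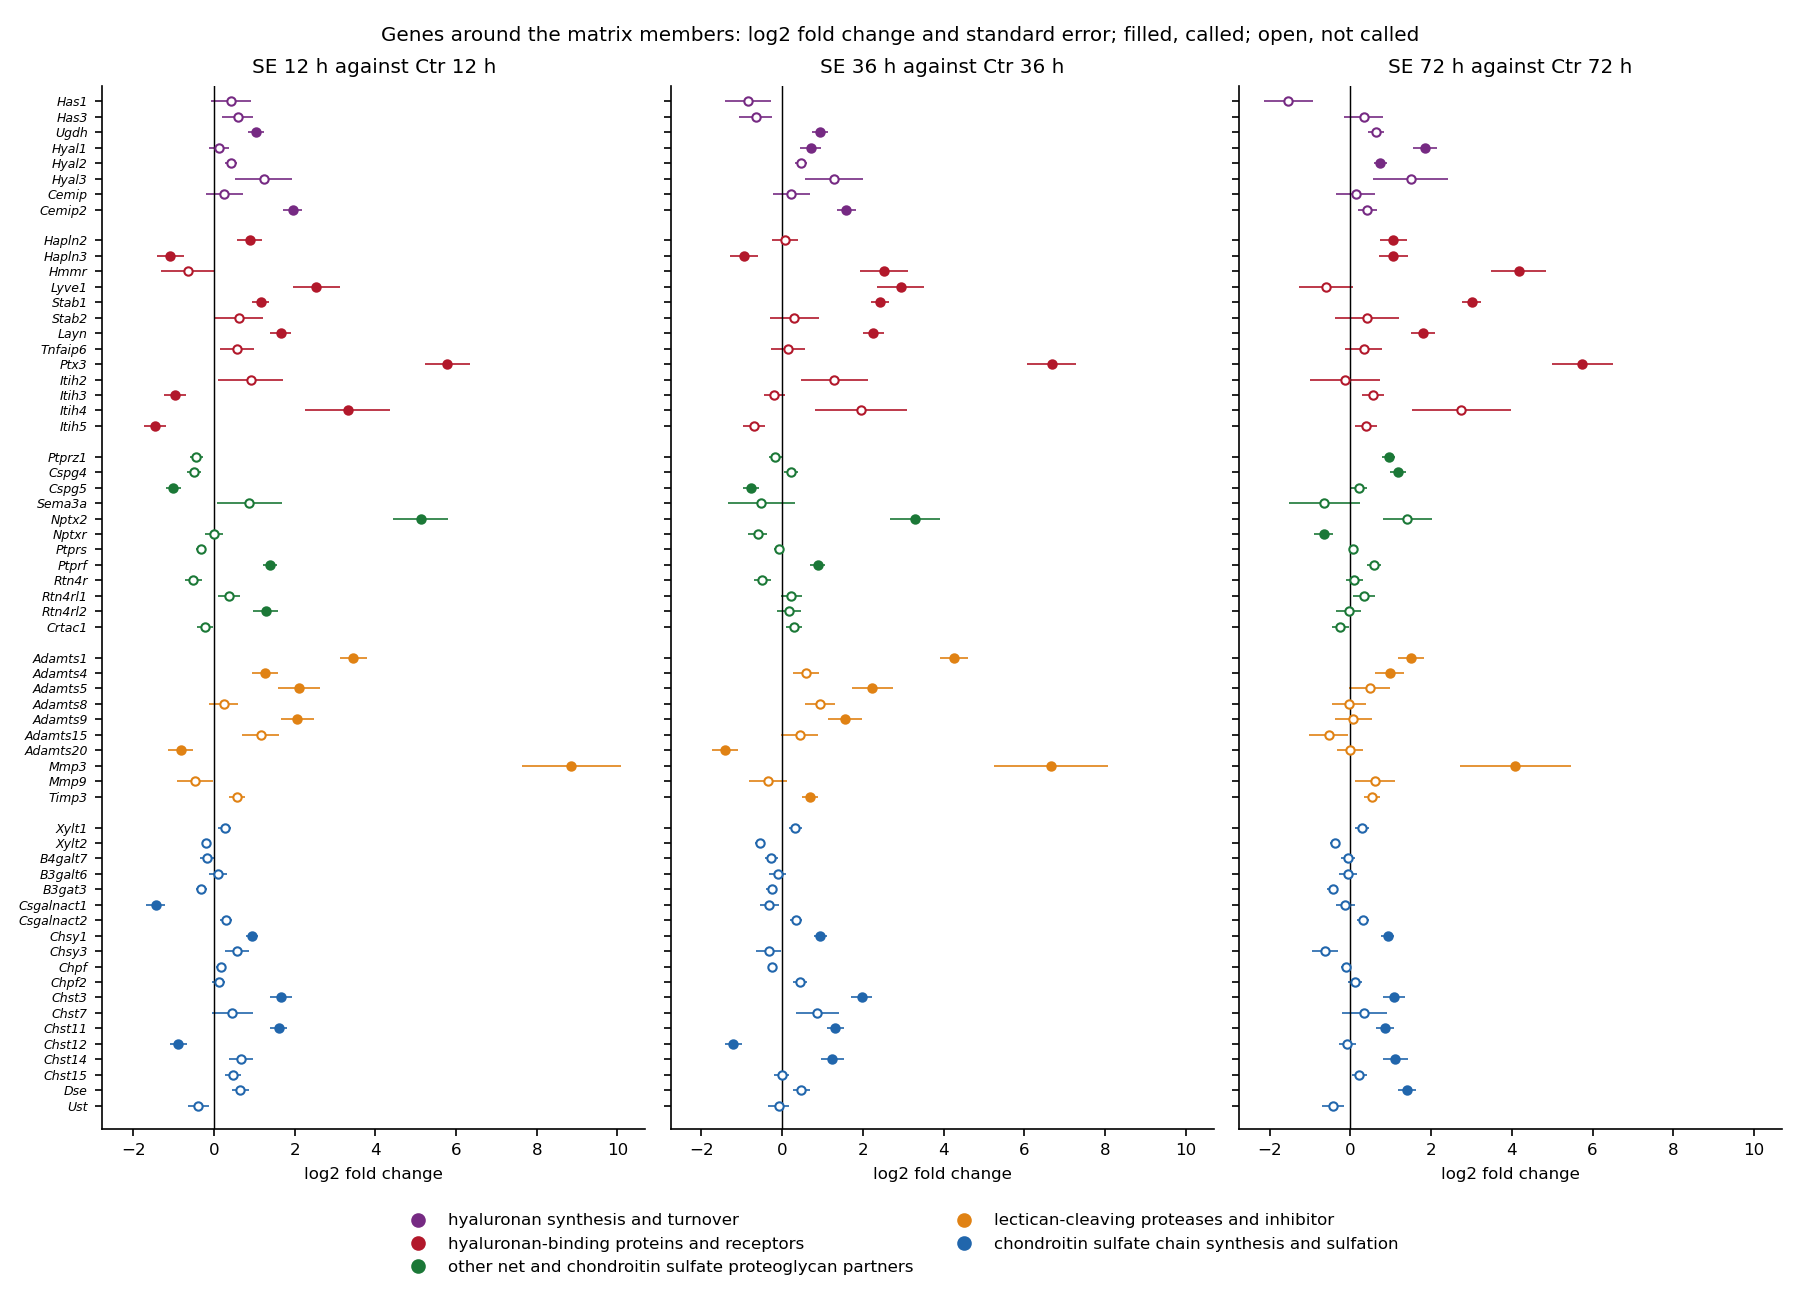
log2FC at 12, 36 and 72 h against the Ctr group of that time for the 62 tested genes of the 5 lists, 1 panel per time, with points grouped by list and filled where called. Points of genes with at most 3 counts in every control library (Mmp3 and Itih4) depend on the prior count of the fit and are no measure of fold. Ptx3 (5.79, 6.68 and 5.75) is near the top of all 3 panels.

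The genome places each lectican gene beside a link protein gene, with 0 protein-coding genes between them, and the pairs did not move as units. Positions are on GRCm39. Acan (7:78702964-78764847, plus strand) ends 2 bases from the opposite-strand Hapln3, and Hapln3 fell at 12 h (log2FC -1.08, adjusted p = 0.0142), 24 h (-1.72, adjusted p = 0.000265) and 36 h (-0.95, adjusted p = 0.0401) and rose at 72 h (1.06, adjusted p = 0.0346), when Acan was not called. Bcan (3:87894835-87910177, minus strand) lies 16622 bases from Hapln2 on the same strand, and Hapln2 rose at 6 h (1.38, adjusted p = 0.00015), 12 h (0.89, adjusted p = 0.0293) and 72 h (1.06, adjusted p = 0.0228). Ncan (8:70538926-70573523, minus strand) overlaps Hapln4 (8:70536106-70543533, plus strand). Vcan (13:89803431-89890814, minus strand) lies 43480 bases from Hapln1 (13:89686581-89759950, plus strand), and at 36 h Vcan rose while Hapln1 fell. The remaining members have no lectican or link protein gene of this kind beside them. They are Tnr at 1:159351339-159759299 (plus), Tnc at 4:63878014-63965443 (minus), Has2 at 15:56528342-56557999 (minus) and Cd44 at 2:102641486-102732010 (minus). Some exon bases are also shared with other annotated genes, namely 400 of Has2 (8.03%) with Has2os, 303 of Tnc (3.801%) with 8030451A03Rik, 207 of Cd44 (3.05%) with Gm57471, 378 of Acan (4.89%) with Gm26633 and 443 and 299 of Tnr (3.28% and 2.21%) with Gm38039 and Gm31348, so counts of these stretches are uncertain too. The same holds for 143 exon bases of Ncan (1.43%) shared with Gm63832.

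The promoters of 3 members that rose strongly, Acan, Tnc and Cd44, and of the 2 with the deepest falls, Bcan and Hapln1, are shown so that their sequences can be set beside these values. Each is the 250 bases before the first base of the canonical transcript on GRCm39, read 5′ to 3′ on the strand of the gene, with motif matches in capitals. For Bcan and Hapln1 this window lies inside the annotated gene, whose span begins further upstream. The windows are chr7:78702714-78702963 (plus strand) for Acan, chr4:63965444-63965693 (minus strand) for Tnc, chr2:102732011-102732260 (minus strand) for Cd44, chr3:87908210-87908459 (minus strand) for Bcan and chr13:89687665-89687914 (plus strand) for Hapln1.
Acan: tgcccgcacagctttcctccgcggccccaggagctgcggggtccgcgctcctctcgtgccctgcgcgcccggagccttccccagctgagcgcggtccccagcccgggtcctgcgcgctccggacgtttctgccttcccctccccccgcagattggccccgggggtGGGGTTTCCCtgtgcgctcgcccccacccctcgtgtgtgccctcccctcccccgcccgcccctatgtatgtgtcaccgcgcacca
Tnc: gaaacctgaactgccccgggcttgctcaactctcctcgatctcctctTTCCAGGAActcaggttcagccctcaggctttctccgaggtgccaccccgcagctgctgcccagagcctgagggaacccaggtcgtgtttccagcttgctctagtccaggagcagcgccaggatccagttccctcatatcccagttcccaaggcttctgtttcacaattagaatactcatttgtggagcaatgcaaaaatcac
Cd44: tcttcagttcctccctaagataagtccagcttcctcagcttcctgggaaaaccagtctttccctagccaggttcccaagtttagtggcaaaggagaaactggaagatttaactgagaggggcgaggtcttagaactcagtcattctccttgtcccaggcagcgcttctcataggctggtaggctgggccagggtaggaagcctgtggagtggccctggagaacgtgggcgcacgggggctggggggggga
Bcan: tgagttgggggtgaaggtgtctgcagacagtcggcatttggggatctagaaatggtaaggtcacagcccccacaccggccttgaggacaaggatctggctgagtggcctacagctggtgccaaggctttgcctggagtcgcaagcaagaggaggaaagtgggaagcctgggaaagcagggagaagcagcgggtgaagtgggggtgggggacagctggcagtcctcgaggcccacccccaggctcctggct
Hapln1: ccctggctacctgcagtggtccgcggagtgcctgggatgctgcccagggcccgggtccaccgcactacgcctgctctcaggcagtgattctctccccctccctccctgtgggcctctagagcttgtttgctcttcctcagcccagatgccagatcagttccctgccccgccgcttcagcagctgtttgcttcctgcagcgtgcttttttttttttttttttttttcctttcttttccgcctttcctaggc

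Of 21770 such windows of protein-coding genes, 6.17% held the AP-1 site TGANTCA, 1.70% the CRE TGACGTCA, 7.70% the STAT site TTCNNNGAA and 4.23% an NF-kB site, searched on both strands. Among the 9 members searched there were 2 matches, an NF-kB site in Acan whose first base lies at -85 and a STAT site in Tnc at -203, counted from the transcript start. The Acan window is the richest of these 5 in G and C, at 74.4% with 26 CpG, against 54.8% and 6 CpG for Tnc, 56.4% and 5 for Cd44, 61.2% and 5 for Bcan and 58% and 9 for Hapln1, where the median window had 53.2% and 8 CpG. A match is only a match of letters, and its absence says only that these letters are not in the window.

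The genes most like each member over the 24 libraries were found among 13740 by the root mean square (RMS) difference of centred log2 CPM, in which all genes share the same libraries and the same groups. For Acan they were Bdnf (0.68), Creb3l1 (0.69) and Pim1 (0.72), and for Bcan Nkain4 (0.28), Slc6a11 (0.35) and Ntsr2 (0.36). Ncan was closest to Dnajc3 (0.21), Glis2 (0.22) and P4hb (0.22), and Vcan to Chst2 (0.21), Axl (0.22) and Calu (0.23). Hapln1 was followed by Myorg (0.48), Itm2a (0.50) and Mmd2 (0.53), and Hapln4 by Olfm1 (0.22), Adam11 (0.22) and Sms (0.25). Tnc was nearest to Tgif1 (0.87), Tm4sf1 (0.89) and Glis3 (0.92), Has2 to Tm4sf1 (0.82), Upp1 (1.02) and Tubb6 (1.04), and Cd44 to Hspb1 (0.72), Itga5 (0.80) and Lgals3 (0.81). Tm4sf1, a membrane protein of endothelial and epithelial cells, was thus listed for Tnc and for Has2. A small RMS difference goes with a member that varied little, so the distances of different members are not compared.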

How the data were processed

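The authors trimmed paired-end reads of poly(A) libraries with Trim Galore 0.6.6, aligned them with STAR 2.7.8a to GRCm39 with GENCODE annotation, and counted reads per gene with HTSeq 0.13.5 without regard to strand (SAMtools 1.10 is also named). They deposited raw counts per gene, without normalization, for 24 libraries. Of the genes, the GENCODE annotation used here gave a symbol and a position for 18552, and 95 stayed unmatched.

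Counts were analysed in R 4.3.3 with edgeR 4.0.16: TMM scaling, filterByExpr (18153 genes), and a model of all 24 libraries with the 8 groups and 1 RUVr factor, which takes unwanted variation from the residuals. Tests were quasi-likelihood tests in edgeR, adjusted by the Benjamini-Hochberg method over all genes tested. Calls needed a log2FC of at least 0.66 in size with an adjusted p of 0.05 or less (1 between SE time points, none for differences of effects). CPM use TMM-scaled library sizes; CPM per kb divide by the union of exons. Centred log2 CPM used a prior count of 2. The scripts were tested on simulated data for the 12 h comparison, where 53 of 100 genes changed 2-fold and 91 of 100 changed 4-fold were called. A member that was not called may therefore still differ.

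Members and lists were chosen with earlier results of these data known. All members are named; of each list, the 2 called genes with the largest absolute log2FC in each direction at 12, 36 and 72 h; and for each member called in any comparison with controls, the 3 nearest genes among those whose mean log2 CPM reached 1. Hapln2, named beside Bcan for its position, falls outside this rule and was chosen after its values had been seen. The promoter of 1 member is not reported here.

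Alternatives were no RUVr factor, DESeq2 1.42.0, limma-voom (limma 3.58.1), DESeq2's size factors, library totals alone, other filters and thresholds, fits of the compared groups only, label numbers or the replicate number as a factor, a sensory ganglion score in place of RUVr, the mean of the Ctr groups, the omission of each library, and, added later, the 18 libraries low in sensory ganglion markers.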

Additional observations from a re-analysis of the deposited data

Results flagged for a closer look

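Among the 9 Ctr libraries, Dixon's test set 1 library apart for 3 of the 10 members. Ctr 12 h replicate 3 had 6.26 CPM of Acan, with a gap to the next library of 0.520 of the whole range, and 193 CPM of Hapln4, with a gap of 0.734 of the range. Ctr 72 h replicate 2 had 68.6 CPM of Cd44, with a gap of 0.922 of the range. Chance alone marks about 1 in 20 groups in this test, and 10 were tested. The part of the CA3, CA2, dentate granule and neuron markers, which were highest among controls in the first library, and of the sensory ganglion markers and the low depth in the second library named, was not tested.

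The SE effect differed between time points in 7 tests of a member (edgeR's quasi-likelihood test, adjusted p from 0.000163 to 0.0135), each with 3 libraries per group. Bcan fell further at 36 h than at 12 h (difference of log2FC -2.02) and less at 72 h than at 36 h (1.86). Hapln1, which had fallen at 12 and 36 h, was higher at 72 h than at either (differences of 2.35 and 1.94). Vcan was higher at 72 h than at 12 h (1.02). Cd44 was raised less at 72 h than at 12 h (-1.93) and at 36 h (-3.14), and neither of these was called without Ctr 72 h replicate 2.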

How the results depend on the processing

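The number of members called stayed within 1.5 times the given value under every alternative run, at 7 to 9 for 12 h, 8 to 9 for 36 h, 5 to 7 for 72 h, 3 to 5 for 6 h, 6 to 8 for 24 h, 9 to 13 between consecutive SE times and 6 to 8 for differences of effects. The exception was the count between Ctr groups, which was 1 and became 2 with DESeq2, the stricter filter, the compared groups only and the replicate block, 0 with limma-voom, the sensory ganglion score and the 18 libraries, and 0 to 2 when single libraries were left out. Uncalled values at 72 h that changed sign were those of Hapln1 (0.26 with the label range as a factor, and -0.33 to 0.10 when single libraries were left out, above 0 without Ctr 72 h replicate 1 or SE 72 h replicate 3), Hapln4 (0.23 with the label range, 0.0287 in the 18 libraries) and Tnr (0.11 with the label range). The causes were not tested. In the 18 libraries, SE 72 h kept replicate 3 alone, so calls at 72 h there are left out. Calls other than these and those named with the results changed as follows. At 6 h, Bcan was called with the label range (-0.76), Tnc with the compared groups only (0.69) and Tnr with library totals alone (-0.67). Ncan and Vcan at 24 h and Hapln4 were lost at a log2FC threshold of 1. Against the mean of the Ctr groups, Acan at 72 h (1.59) and Tnr at 12 h (-0.73) were called, and Hapln4 at 12 h (-0.55) was not. Hapln4 at 12 h was also lost with the compared groups only (-0.76). Tnr at 12 h was called in the 18 libraries (-0.71). There, with SE 72 h replicate 3 alone, the Cd44 differences were -0.34 (72 h minus 12 h) and -1.64 (72 h minus 36 h). Replicate numbers did not pair the samples: correlations of same-numbered SE and Ctr libraries ran from -0.20 to 0.18, and the replicate block changed no other call of a member. Scaling by library totals alone moved the median log2FC of all genes to 0.13 at 36 h and 0.14 at 72 h, and Hapln4 at 36 h was then not called (-0.71, adjusted p = 0.0588 in edgeR). With no RUVr factor, 2851 of all genes tested were called at 72 h, where 3530 were called with it. Has2 had 9 counts or fewer in each control library, which limits the precision of its folds.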
